A study of Mus musculus with 6 samples.

Results

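Cells of the mouse spleen that were neither C1q-rich macrophages nor erythroid cells were compared between 1 untreated section and 1 section taken after phenylhydrazine (PHZ). The cells were chosen by measured counts. A cell was kept when at least 5 genes were detected in it, when its summed count of C1qa, C1qb and C1qc was below 3, and when its summed count of Slc4a1, Klf1, Hemgn, Rhd and Fech was below 3. This left 66804 of 108327 cells with 5 or more genes in the untreated section, or 61.7% (95% exact binomial interval 61.4 to 62.0), and 20536 of 94492 in the PHZ section, or 21.7% (21.5 to 22.0). The 87340 kept cells were part of 521938 cells in the 6 sections of the series.

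Both mice were wild-type C57BL/6 adults. The PHZ mouse was 2 months old, and the sources differ on the untreated mouse, which is given as 2 months in most places and 3 months in another. The PHZ mouse had received 40 mg/kg intraperitoneally 2 times a day for 2 days, and the methods name a vehicle, phosphate-buffered saline, for control mice. The labels of the untreated mouse give no injection, so whether it received the vehicle is not settled by the sources used here. Each condition was 1 formalin-fixed, paraffin-embedded section of 5 µm from 1 mouse, and both sections lay on the same slide and were imaged in the same run. Transcripts of 477 genes were counted in place by Xenium, an imaging assay that decodes single RNA molecules and assigns them to cells drawn around nuclei. With 1 section per condition no test was possible, mouse, section and treatment cannot be told apart, and every interval below covers counting error only. Pairs of values are given with the untreated section first.

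PHZ oxidizes hemoglobin and lyses red blood cells, and in mice the spleen answers with stress erythropoiesis, an expansion of erythroid progenitors around macrophages in the red pulp. The rest of the organ holds lymphocytes of the white pulp, neutrophils, monocytes and dendritic cells, endothelium, and a frame of reticular fibroblasts and contractile cells. Chemokines such as Cxcl2 and Ccl2 draw neutrophils and monocytes into tissue, and acute-phase proteins are secreted when tissue is damaged or inflamed.

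The kept cells held a smaller share of the PHZ section and were shallower there. Per mm2 of tissue, counted in tiles of 50 µm that held a cell, 14389.7 kept cells were found in the untreated section and 2898 in the PHZ section, whereas removed cells stood at 8944 and 10435. A kept cell carried a mean of 78.1 counts (median 72, quartiles 52 and 96) in the untreated section and 62.5 (median 54, quartiles 37 and 78) after PHZ. Removed cells went the other way, with means of 124 and 137. Negative control probes gave 50.4 and 47.5 CPM in the kept cells, so their level was close in both sections. Just inside the gate, cells with 2 C1q counts carried means of 86.0 and 74.4 counts in all, and just outside it, cells with 3 carried 90.8 and 81.2. For the erythroid genes the same means were 101 and 75.0 at 2 counts and 107 and 79.3 at 3.

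**Figure D1:**
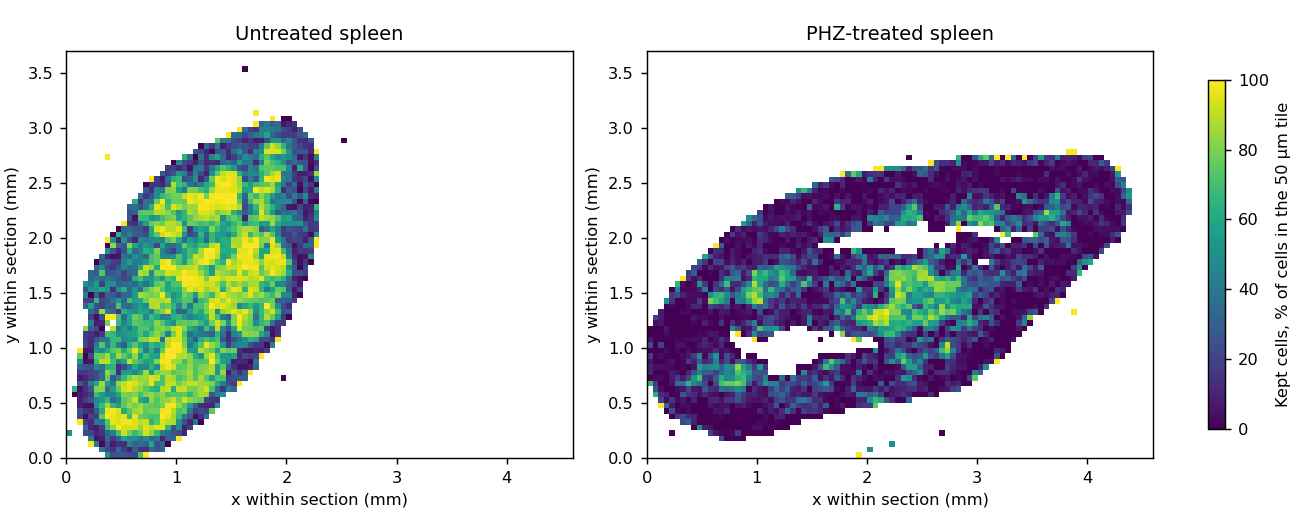
Share of cells that were kept, in percent of the cells with 5 or more genes in each 50 µm tile, across the untreated section (left) and the PHZ section (right), with position in mm on both axes. Kept cells filled broad patches of the untreated section and a few smaller patches of the PHZ section, where 21.7% of cells were kept.

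Kept cells lay among removed ones and were not free of macrophage and erythroid transcripts. The 20 macrophage genes other than C1q summed to 6.22 counts per kept cell in the untreated section and 4.28 in the PHZ section, and none was at 0. The median distance from a kept cell to the nearest removed cell was 7.99 µm in the untreated section and 6.93 µm in the PHZ section, and 6629 kept cells against 192 were more than 20 µm away from any. The 17 erythroid genes outside the gate, which include the hemoglobin gene Hbb-bt, gave a summed level of 3.79 counts per kept cell in the untreated section and 3.98 in the PHZ section, and none was at 0. Hbb-bt stood at 0.234 and 0.656 counts per kept cell in that order, Gata1, the erythroid transcription factor, at 0.0149 and 0.0531, and Plek2 at 0.00497 and 0.0320. The part of neighboring erythroid cells in the other values was not tested. The comparison was repeated in kept cells without a single count of the 8 gate genes (29996 and 6917 cells). There, 52 of the 56 genes named by the rule and past 2-fold stayed past it, and Cd3d (-0.68), Klrb1c (-0.75), Cxcr5 (-0.91) and Pck1 (-0.45, log2) did not. These genes were named by their folds in kept cells that include this subset, so a high number was favored in advance. Of all 333 genes tested in the subset, 106 were at least 2-fold higher, and 98 of these were also higher in all kept cells. Of the 17 erythroid genes outside the gate, 8 were still 2-fold higher there.

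Of the 477 genes, 430 had at least 200 counts over the kept cells of both sections. Of these, 167 (38.8%) were at least 2-fold higher in CPM (counts scaled to the same total in both sections) after PHZ and 25 (5.81%) at least 2-fold lower. The whole distribution was shifted, with a median log2 fold of 0.67 in CPM and 0.35 per kept cell, and the shift was largest in scarce genes. Among the 150 genes with at least 200 but fewer than 1000 counts, 98 were higher and 1 was lower, with a median log2 fold of 1.15, whereas the 134 genes with 10000 counts or more had 19 higher and 11 lower and a median of -0.0798. Genes of tissues outside the spleen, such as the keratin Krt16, had a median log2 fold of 0.98 over 13 members and 5 of them were 2-fold higher, so a shift of this size was also seen in genes that spleen is not known for. Summed over all 16 genes of this list, the level was 0.148 and 0.148 counts per kept cell. The median log2 fold per kept cell of the 13 members was 0.66. The balance of higher to lower genes depended on the scale. Per kept cell it was 100 to 51, after division by the median fold of all genes 51 to 84, and after division by the median fold of the genes of other tissues 37 to 123. These are called the first and the second division in what follows.

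**Figure D2:**
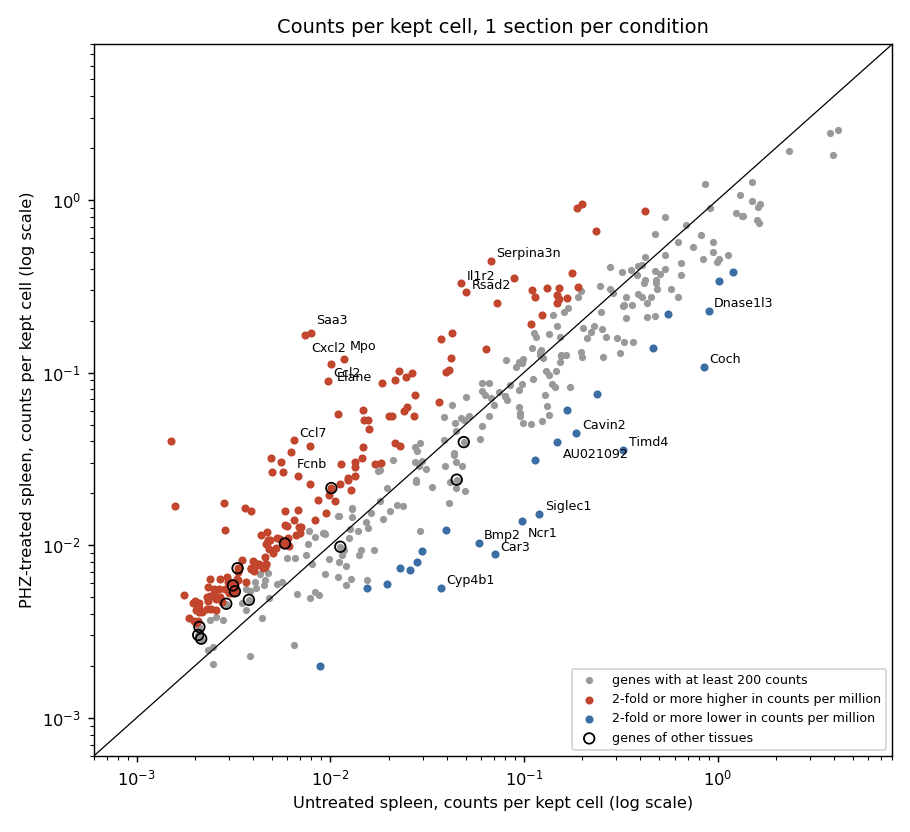
Counts per kept cell of the 430 genes with at least 200 counts, untreated (x) against PHZ (y), both on log scales, with the 10 largest rises and 10 largest falls named and genes of other tissues ringed. Red and blue mark the 167 genes at least 2-fold higher and the 25 at least 2-fold lower in CPM. Scarce genes lay mostly above the line of equal counts and abundant ones on or below it.

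Of 13 genes with enough counts in a list of chemokines and chemokine receptors, 9 were at least 2-fold higher, against 38.8% of all genes, and none lower. The median log2 fold of the list was 2.30, against 0.67 over all genes. The list does not hold the whole family, since Cxcl13, Cxcr5, Ccr2, Cxcr2, Pf4 and Ppbp stand in other lists below. None of these was 2-fold higher, and Cxcr5 was 2-fold lower. More than 20 µm from removed cells, where 5 of the list had enough counts, 1 was higher and 1 lower, with a median of 0.43, and of all 176 genes tested there 43 were higher and 22 lower. Cxcl2, a neutrophil attractant, was at 0.00744 counts per kept cell in the untreated section and 0.164 in the PHZ section, 27.6-fold higher in CPM (95% interval 25.1 to 30.4). More than 20 µm from removed cells Cxcl2 was 4.10-fold higher (95% interval 1.46 to 9.37), on 6 PHZ counts. Ccl2, which draws monocytes, was at 0.00973 counts per kept cell in the untreated section and 0.0895 in the PHZ section, 11.5-fold higher in CPM (95% interval 10.5 to 12.6). The related Ccl7 stood at 0.00647 and 0.0405 counts per kept cell, 7.82-fold higher in CPM (95% interval 6.95 to 8.80).

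The neutrophil attractant Cxcl1 was 6.74-fold higher in CPM (95% interval 5.92 to 7.68), at 0.00560 and 0.0302 counts per kept cell. Ccl9 had the most counts of the higher chemokines, at 0.0891 and 0.351 counts per kept cell and 4.93-fold higher in CPM. Ccl3 and Ccl4, released by activated myeloid and lymphoid cells, were 5.28-fold and 4.76-fold higher, and Ccl12 5.32-fold. The lymphocyte chemokine Ccl5 had the most counts of the list and was lower, at 1.13 and 0.479 counts per kept cell, 1.90-fold lower in CPM (95% interval 1.86 to 1.94). With Ccl5 counted, the list summed to 1.76 and 1.75 counts per kept cell, and without it to 0.625 and 1.28. Per kept cell 9 genes of the list were 2-fold higher and 2 were 2-fold lower, Ccl5 among the latter. On that scale 100 of all 430 genes were higher and 51 lower.

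Cxcl2 and Cxcl1 lie close together on mouse chromosome 5, and their promoters, chosen after the values were seen, are shown because both genes were higher. The sequences are RefSeq's for GRCm38.p6, from 250 bases before to 50 after the start of the transcript, on the plus strand. The Cxcl2 window covers chr5:90903649-90903948 and the Cxcl1 window chr5:90890995-90891294. Capitals mark GGNNTTTCC, the letters of a kappaB element, searched on both strands.
Cxcl2: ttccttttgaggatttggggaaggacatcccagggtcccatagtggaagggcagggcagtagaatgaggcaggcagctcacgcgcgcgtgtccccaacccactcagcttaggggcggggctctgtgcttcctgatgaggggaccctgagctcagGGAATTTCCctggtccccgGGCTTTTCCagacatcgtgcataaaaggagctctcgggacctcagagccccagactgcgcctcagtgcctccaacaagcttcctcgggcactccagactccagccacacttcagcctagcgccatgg
Cxcl1: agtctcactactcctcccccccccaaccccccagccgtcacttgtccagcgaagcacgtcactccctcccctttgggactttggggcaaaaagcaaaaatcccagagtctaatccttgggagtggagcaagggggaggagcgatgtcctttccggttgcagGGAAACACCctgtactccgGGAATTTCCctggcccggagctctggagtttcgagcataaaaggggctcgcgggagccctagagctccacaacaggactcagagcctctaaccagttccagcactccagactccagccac
The Cxcl2 window held this motif at 2 places and the Cxcl1 window at 2. It was present in 5.72% of 27025 mouse promoters of this length, in 3 of the 7 chemokine list genes that have a promoter in the table, in 4 of the 8 matched among the 10 largest rises and in 0 of the 5 matched among the 10 largest falls. A match describes letters and is not a binding site.

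Of 9 acute-phase and scavenging genes, 5 were 2-fold higher in CPM, against 38.8% of all genes, and none lower, with a median log2 fold of 1.05. Per kept cell 3 were higher, against 100 of all 430 genes. After division by the median fold of genes of other tissues 3 were higher and 1 lower, with a median of 0.0740. On that scale 37 of all 430 genes were higher and 123 lower. Without the gate the list median was -0.39, against -0.45 over all genes. Saa3, an acute-phase serum amyloid made outside the liver too, was at 0.00795 counts per kept cell in the untreated section and 0.170 in the PHZ section, 26.7-fold higher in CPM (95% interval 24.3 to 29.3). Serpina3n, a secreted protease inhibitor, had the most counts of the 10 largest rises, at 0.0674 counts per kept cell in the untreated section and 0.446 in the PHZ section, 8.25-fold higher in CPM (95% interval 7.96 to 8.56). Haptoglobin (Hp), which binds free hemoglobin, was at 0.0423 and 0.169 counts per kept cell, 5.00-fold higher in CPM (95% interval 4.76 to 5.25). The heme binder hemopexin (Hpx) was scarce, at 0.00278 and 0.00370 counts per kept cell. Transferrin (Trf), the carrier of iron in plasma, stood at 0.302 and 0.158 counts per kept cell, 1.53-fold lower and within the 2-fold bound. Complement C3 was at 0.622 and 0.569 counts per kept cell.

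**Figure D3:**
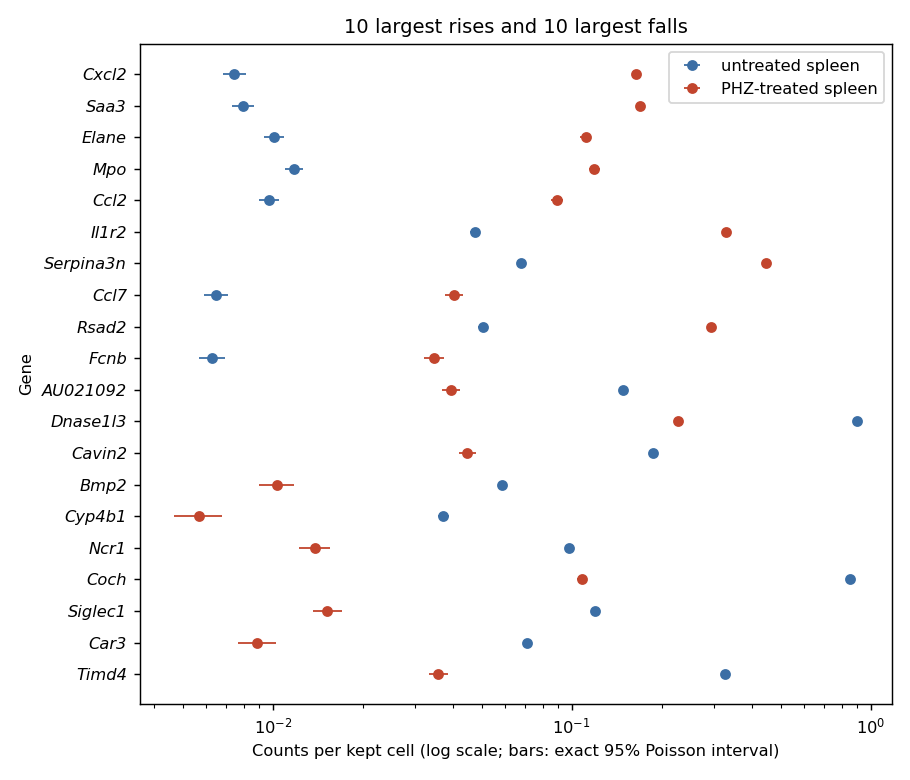
Counts per kept cell (x, log scale) of the 10 largest rises and the 10 largest falls among genes with at least 1000 counts, in the untreated (blue) and PHZ (red) section, with exact 95% Poisson intervals as bars. No pair of intervals overlaps, which follows from choosing the genes by their folds. The span runs from Cxcl2, 27.6-fold higher in CPM, to Timd4, 7.29-fold lower.

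Granule genes of early neutrophil precursors had the highest median of the lists, a log2 fold of 3.22 over 6 genes, of which 4 were 2-fold higher, against 38.8% of all genes. Elane, neutrophil elastase, was at 0.0101 counts per kept cell in the untreated section and 0.111 in the PHZ section, 13.8-fold higher in CPM (95% interval 12.6 to 15.0). Myeloperoxidase (Mpo) was at 0.0118 and 0.119 counts per kept cell, 12.6-fold higher in CPM (95% interval 11.6 to 13.7). Its log2 fold was 3.66, and the lowest across 11 other ways of choosing or scaling the counts was 2.11. Cathepsin G (Ctsg) had the highest ratio of all genes tested, 33.4-fold higher in CPM (95% interval 27.1 to 41.6), on 100 and 823 counts. More than 20 µm from removed cells, where 192 PHZ cells remained, Elane had 1 PHZ count and a log2 fold of -0.10. The ficolin gene Fcnb was 6.90-fold higher in CPM (95% interval 6.10 to 7.80). Without the gate its log2 fold was 0.83, and 3 genes of the list were higher and 1 lower, with a median of 1.44. Of all 462 genes tested without the gate, 61 were higher and 128 lower, with a median of -0.45.

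These transcripts were packed into few cells. Elane was detected in 0.638% of kept cells untreated and 3.66% after PHZ, and 57.4% of its counts in the PHZ section came from cells with 5 or more. For Mpo that share was 62.0%. The eosinophil granule gene Prg2 and the mast cell protease Cpa3, also in the list, were not 2-fold different, at 1.47 and 1.66 times the untreated level in CPM. Cells with 3 or more counts over the 6 genes, Prg2 and Cpa3 included, made up 0.816% of kept cells untreated and 2.92% after PHZ. Once each cell was thinned to 50 counts the shares were 0.512% and 3.28%. The set was not alike in both sections, with Elane at 0.622 counts per cell of the set untreated and 3.27 after PHZ. Per mm2 of tissue the kept cells of this set numbered 117 untreated and 84.7 after PHZ. These densities leave out removed cells. Unthinned erythroid-gated cells outside the C1q gate passed the same cut at 2.71% and 3.52%. A density over all cells was not formed. Thinning left out 14852 untreated and 8851 PHZ cells that had fewer than 50 counts. In erythroid-gated cells outside the C1q gate, thinned alike, the same share was 1.35% and 2.04%.

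Of 11 genes of mature neutrophils, 7 were 2-fold higher in CPM, against 38.8% of all genes, and none lower, with a median log2 fold of 1.25. After division by the median fold of all genes 4 were higher, and after division by that of genes of other tissues 3, with a median of 0.27. Of all 430 genes, 51 and 37 were higher after these divisions. Without the gate 3 were higher and 1 lower, with a median of -0.0171. Of all 462 genes tested without the gate, 61 were higher and 128 lower, with a median of -0.45. Il1r2, the decoy receptor for interleukin-1, led them at 0.0474 counts per kept cell in the untreated section and 0.328 in the PHZ section, 8.64-fold higher in CPM (95% interval 8.28 to 9.01). The collagenase gene Mmp8 was 5.64-fold higher in CPM (95% interval 5.27 to 6.02) and the receptor gene Mrgpra2a 6.50-fold higher. The calcium-binding S100a9 was at 0.148 and 0.281 counts per kept cell, 2.37-fold higher in CPM (95% interval 2.30 to 2.45), and Csf3r, the receptor for the granulocyte growth factor, 2.98-fold higher. Cxcr2, the receptor for Cxcl1 and Cxcl2, was 1.52 times its untreated level, within the 2-fold bound.

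Cells with 3 or more counts over 7 neutrophil markers made up 5.19% of kept cells untreated and 11.7% after PHZ, and 3.07% and 10.9% when thinned. In thinned erythroid-gated cells outside the C1q gate the share was 4.02% and 3.87%, above that of kept cells in the untreated section. Unthinned, these erythroid-gated cells passed the cut of the 5 T cell markers at 30.1% untreated and 2.23% after PHZ. They are therefore not a background free of other cell types, and no conclusion is drawn from them. Per mm2, kept cells past the neutrophil cut numbered 747 untreated and 338 after PHZ. These densities leave out removed cells. Unthinned erythroid-gated cells outside the C1q gate passed the same cut at 8.16% and 7.94%. A density over all cells was not formed. Within the set of kept cells Timd4 was at 0.777 counts per cell untreated and 0.0213 after PHZ, and Siglec1 at 0.471 and 0.0142. The transcripts of the set therefore differed between the sections. Fewer cells of a type and less RNA per cell cannot be told apart in the summed counts.

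The cells that carried the higher transcripts differed by gene. In the PHZ section, cells with neutrophil markers held 51.9% of all Cxcl2 counts and 62.9% of Il1r2 counts while making up 11.7% of kept cells. In the untreated section they held 10.9% and 18.0%, and cells with 3 or more counts over 5 T cell markers, 39.5% of kept cells there, held 42.5% and 64.4%. In cells with neutrophil markers Cxcl2 reached 0.731 counts per cell after PHZ, against 0.0156 in the untreated section. There, the thinned share of this set was below that in erythroid-gated cells. In cells with 3 or more counts of Cd3d and Cd3e it was at 0.0464 against 0.00775. Saa3 was highest in cells with monocyte or dendritic markers, at 0.638 counts per cell after PHZ and 0.00997 untreated. Cells with stromal markers held 70.4% of the Serpina3n counts after PHZ and 49.3% untreated, at 1.27 and 0.313 counts per cell. The T cell set, which overlaps with it, held 18.5% after PHZ and 59.0% untreated, at 0.400 and 0.101 counts per cell.

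After PHZ Ccl2 was highest in cells with endothelial markers, at 0.339 counts per cell, against 0.0135 untreated, where cells with stromal markers were highest at 0.0239. These sets overlap, because a cell can pass several, and a transcript of a neighbor counts like a cell's own. In cells with none of the marker sets, Cxcl2 was still at 0.113 against 0.00661 counts per cell, Saa3 at 0.0885 against 0.00809 and Il1r2 at 0.131 against 0.0175.

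**Figure D4:**
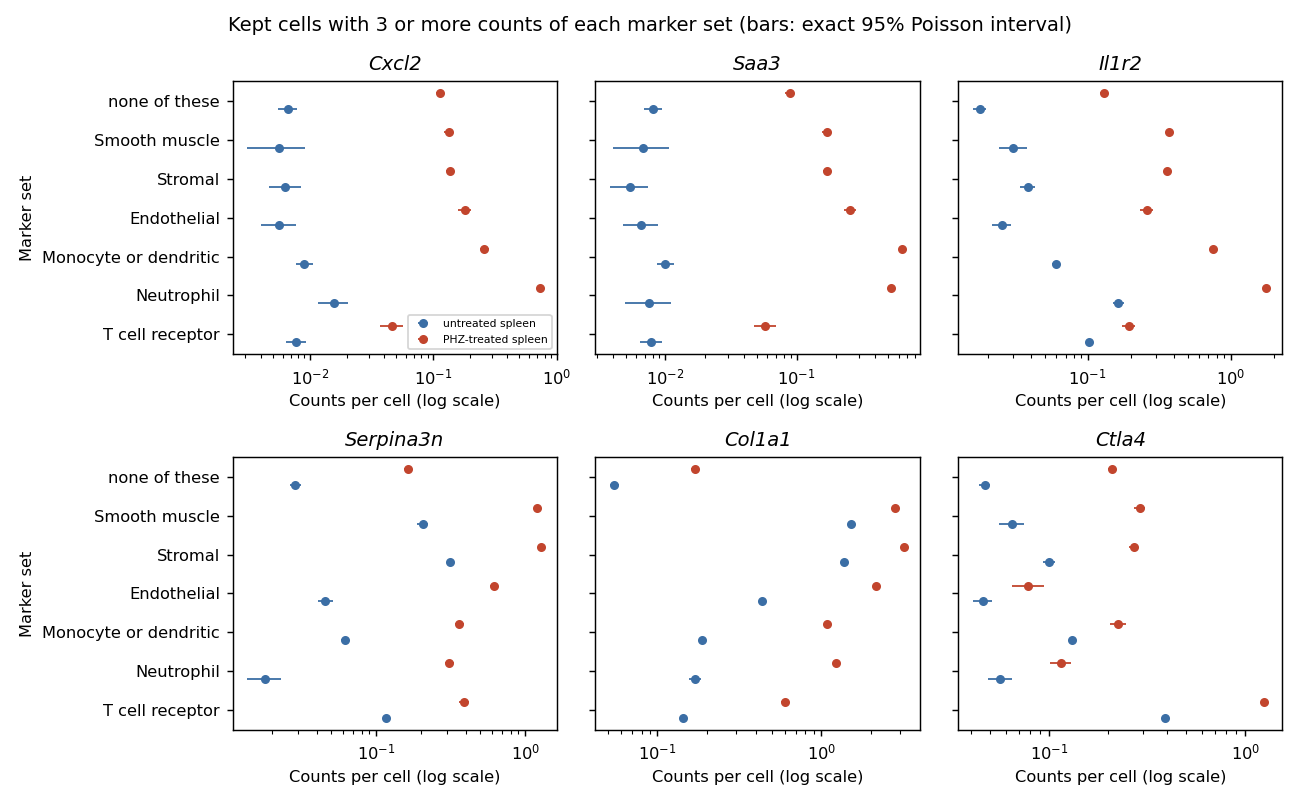
Counts per cell (x, log scale) of 6 genes in kept cells with 3 or more counts of each marker set (y), untreated in blue and PHZ in red, with exact 95% Poisson intervals. Cxcl2 and Il1r2 were highest in the neutrophil set after PHZ, as were Serpina3n in the stromal set and Ctla4 in the T cell receptor set. Col1a1 is one of the 6 stromal markers, so its level in that set follows from how the set was chosen.

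Of 10 interferon and innate genes, 1 was 2-fold higher and none 2-fold lower, against 38.8% and 5.81% of all genes. After the first division 5 were lower and after the second 7, against 84 and 123 of all 430 genes, with 1 higher in both cases. Rsad2, which encodes the antiviral protein viperin, was at 0.0504 counts per kept cell in the untreated section and 0.292 in the PHZ section, 7.23-fold higher in CPM (95% interval 6.93 to 7.54). The list median was a log2 fold of -0.30. Isg20 was 1.90 times its untreated level, and the interferon-induced chemokine Cxcl10 stood at 0.323 and 0.243 counts per kept cell. The inflammasome target Gsdmd and the immunoproteasome gene Psmb8 were 1.51-fold and 1.41-fold lower. Rsad2 was spread over the sets, with 0.714 counts per cell among cells with endothelial markers and 0.595 among those with neutrophil markers after PHZ.

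Of 12 cytokine and growth factor genes, only Il10, an anti-inflammatory cytokine, passed 2-fold, against 38.8% of all genes higher, at 0.0123 and 0.0243 counts per kept cell and 2.47-fold higher in CPM (95% interval 2.21 to 2.77). Il1b, the inflammatory interleukin, was 1.79 times its untreated level, Igf1 1.39 times, and the receptor gene Il4ra 1.42-fold lower. The list median was a log2 fold of -0.0122, and none was higher and 3 and 6 were lower after the first and second division. Of all 430 genes, 84 and 123 were lower after these divisions. Il10 was 1.98-fold higher per kept cell, below 2-fold on that scale.

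Of 12 T cell genes 2 were 2-fold lower, against 5.81% of all genes, 1 was higher and 9 were within 2-fold, with a median log2 fold of -0.35. Cd8a, the coreceptor of cytotoxic T cells, was at 0.465 counts per kept cell in the untreated section and 0.138 in the PHZ section, 2.69-fold lower in CPM (95% interval 2.59 to 2.80), and Cd3d, a chain of the T cell receptor complex, 2.03-fold lower in CPM (95% interval 1.97 to 2.10). Cd4 and Cd3e were 1.81-fold and 1.79-fold lower, within the bound. Ctla4, the inhibitory receptor of activated and regulatory T cells, went the other way, from 0.131 to 0.310 counts per kept cell, 2.96-fold higher in CPM (95% interval 2.87 to 3.06), with log2 folds of 0.90 and 0.59 after the first and second division. After those divisions 6 and 7 of the 12 were lower and none higher, against 84 and 123 of all 430 genes lower. Without the gate 11 were lower, with a median of -1.93, where 128 of 462 genes tested were lower and the median of all genes was -0.45. Foxp3, the factor of regulatory T cells, was 1.45 times its untreated level in CPM. Per kept cell 5 of the 12 were 2-fold lower, against 51 of all 430 genes. In cells without a gate count the list median was -0.0456, with Cd8a at -1.03 and Cd3d at -0.68 (log2). More than 20 µm from removed cells 3 of the 12 were 2-fold higher and none lower, with a median of 0.37, where 43 of the 176 genes tested at that distance were higher and 22 lower, and Cd8a was at 0.0434 and Cd3d at 0.44.

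Cells with 3 or more counts of Cd3d and Cd3e made up 21.6% of kept cells untreated and 9.23% after PHZ, or 16.6% and 8.22% when thinned. In thinned erythroid-gated cells the share was 8.76% and 0.318%. Among these cells Ctla4 was at 0.390 counts per cell untreated and 1.25 after PHZ, and Foxp3 at 0.297 and 0.492. Cd4 in the same cells was at 1.73 and 1.23 and Cd8a at 1.48 and 0.847. The median counts of these cells were 84 and 70. Cells with none of the marker sets showed Ctla4 at 0.0468 and 0.209. Over all cells with 5 or more genes, removed ones included, Ctla4 had a log2 fold of -0.0697 in CPM.

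Of 3 natural killer cell genes, 2 were 2-fold lower, against 5.81% of all genes. Ncr1, which encodes the activating receptor NKp46, was at 0.0977 counts per kept cell in the untreated section and 0.0138 in the PHZ section, 5.66-fold lower in CPM (95% interval 5.02 to 6.39). Klrb1c was 2.20-fold lower in CPM (95% interval 2.07 to 2.33), and Klra8 1.57-fold lower. More than 20 µm from removed cells Klra8 was 2.28-fold higher in CPM (95% interval 1.29 to 3.75), on 16 PHZ counts. Cells with 3 or more counts over these genes made up 3.10% and 0.604% of kept cells. The thinned shares were 2.39% and 0.531%, against 3.26% and 0.206% in erythroid-gated cells. In the untreated section those cells were not a background free of other cell types.

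Coch was listed with 2 genes of B cell follicles, but its values set it apart from them. It was at 0.851 counts per kept cell in the untreated section and 0.108 in the PHZ section, 6.29-fold lower in CPM (95% interval 6.03 to 6.57). In the untreated section it was highest in cells with stromal markers, at 3.09 counts per cell, and fell from 1.02 counts per cell within 10 µm of a removed cell to 0.347 more than 20 µm away, whereas Cxcr5 rose from 0.822 to 1.57 and Cxcl13 from 0.377 to 1.07. Cxcr5, the receptor that guides B cells into follicles, was 2.40-fold lower in CPM (95% interval 2.34 to 2.46). Its ligand Cxcl13 stood at 0.536 and 0.399 counts per kept cell, a ratio of 0.929 in CPM. That ratio was 1.41 in kept cells within 10 µm of a removed cell, 0.562 at 10 to 20 µm and 0.137 (95% interval 0.0834 to 0.211, on 20 PHZ counts) farther away, where all 3 genes were 2-fold lower. The panel held no further B cell marker, so no B cell class was formed. All 7 pan-leukocyte genes were within 2-fold in CPM, with a median log2 fold of -0.40. Per kept cell 3 were lower, against 51 of all 430 genes, and after the first and second division 4 and 6, against 84 and 123. Without the gate 6 were lower, against 128 of all 462 genes tested. Rac2, a small GTPase of blood cells, had the most counts of the 7, at 3.92 and 1.81 counts per kept cell.

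Genes of macrophages other than C1q were split. Of 20, 4 were 2-fold lower, against 5.81% of all genes, and 2 higher. After division by the median fold of genes of other tissues 12 were lower, against 123 of all 430 genes, and none higher. Timd4, a receptor for dying cells on resident macrophages, had the largest difference downward, at 0.326 counts per kept cell in the untreated section and 0.0358 in the PHZ section, 7.29-fold lower in CPM (95% interval 6.77 to 7.85). Siglec1 (CD169), a marker of metallophilic macrophages of the marginal zone, was at 0.120 and 0.0152 counts per kept cell, 6.31-fold lower in CPM (95% interval 5.63 to 7.08). The macrophage marker Adgre1 (F4/80) was 2.55-fold lower in CPM (95% interval 2.42 to 2.69) and the hemoglobin scavenger receptor Cd163 2.47-fold lower. Slc40a1, the iron exporter ferroportin, stood at 0.689 and 0.719 and Cd68 at 0.279 and 0.408 counts per kept cell. The 2 higher genes, Clec4f and Folr2, were scarce, with 258 and 630 counts in all. The gate bore on these genes, since cells rich in C1q had been removed.

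In C1q-gated cells, the fall of Timd4 was smaller (log2 fold -1.59 against -2.87 in kept cells), and that of Siglec1 was -0.46 against -2.66. Marco, a scavenger receptor of marginal zone macrophages, stood at -0.96 in kept and 1.08 in C1q-gated cells. None of these differences could be tested. Kept cells more than 20 µm from any removed cell showed Timd4 at 0.729 counts per cell untreated, above the 0.230 of those within 10 µm.

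Of 16 monocyte or dendritic genes, 1 was 2-fold lower and 1 higher, against 5.81% and 38.8% of all genes. After the first and second division none was higher and 6 and 8 were lower, against 84 and 123 of all 430 genes lower. The gene Plbd1 was lower, at 1.20 and 0.385 counts per kept cell, 2.50-fold lower in CPM (95% interval 2.45 to 2.56), and F13a1, which encodes a chain of coagulation factor XIII carried by monocytes, was 3.15-fold higher in CPM (95% interval 2.97 to 3.33), with log2 folds of 0.99 and 0.68 after the divisions. Ccr2, the receptor for Ccl2, was at 0.124 and 0.0525 counts per kept cell, 1.89-fold lower, and the oxidase subunit Ncf4 1.78-fold lower. The list median was a log2 fold of -0.10. Dnase1l3, a secreted nuclease, and AU021092 were also among the 10 largest falls, at 0.901 and 0.227 and at 0.148 and 0.0395 counts per kept cell. Bmp2, a growth factor, and Cyp4b1, a fatty acid hydroxylase, were 4.52-fold and 5.28-fold lower. More than 20 µm from removed cells Bmp2 was at a log2 fold of -0.15, on 3 PHZ counts, and AU021092 at -0.41, on 7.

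Of 17 stromal genes 8 were 2-fold higher and none lower, a share near the 38.8% of all genes, and their median log2 fold of 0.85 was near the 0.67 of all genes. Of 9 smooth muscle or pericyte genes 7 were higher, with a median of 1.12. Col1a1, the main chain of type I collagen, was at 0.200 counts per kept cell in the untreated section and 0.944 in the PHZ section, 5.91-fold higher in CPM (95% interval 5.78 to 6.04), and its partner Col1a2 2.55-fold higher in CPM (95% interval 2.50 to 2.59). Tagln, an actin-binding protein of contractile cells, was at 0.189 counts per kept cell in the untreated section and 0.899 in the PHZ section, 5.94-fold higher in CPM (95% interval 5.80 to 6.07). Desmin (Des) was 2.66-fold, Rgs5 3.18-fold, Cnn1 2.27-fold, Serpinf1 3.36-fold and Mfap4 2.32-fold higher. The receptors Pdgfra and Pdgfrb, which mark fibroblasts and pericytes, were 2.18-fold and 2.01-fold higher, whereas Ccdc80 and Timp3 were at 0.836 and 0.939 times the untreated level.

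The scale mattered for these lists. Per kept cell 3 of 17 stromal and 3 of 9 smooth muscle genes were 2-fold higher, against 100 of all 430 genes. After division by the median fold of genes of other tissues the stromal median was -0.12 and the smooth muscle median 0.15 (log2). Col1a1 and Tagln stayed above 2-fold on each scale. Without the gate the list medians were -0.70 and -0.26, against -0.45 over all genes. Col1a1 was then at 1.59 and Tagln at 1.38 but Serpinf1, Mfap4, Rgs5 and Cnn1 at -0.0633, -0.66, -0.12 and -0.46. Cells with 3 or more counts over 6 stromal markers made up 10.6% of kept cells untreated and 24.7% after PHZ, or 1529.8 and 717 kept cells per mm2. Thinned, the shares were 6.86% and 27.2%, against 5.97% and 7.63% in erythroid-gated cells. Cells with 3 or more counts over 4 smooth muscle markers made up 4.03% and 17.0%, or 580 and 493 kept cells per mm2. These densities leave out removed cells. Unthinned erythroid-gated cells outside the C1q gate passed the stromal cut at 13.6% and 14.9%. They passed the smooth muscle cut at 5.76% and 7.05%.

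Within the sets the differences were uneven. Tagln, itself a smooth muscle marker, was at 3.20 and 3.74 counts per cell in the smooth muscle set, 1.17-fold higher, and at 0.0877 and 0.733 in the T cell set, 8.36-fold higher. Col1a1, itself a stromal marker, was 2.32-fold higher per cell in the stromal set and 12.6-fold higher in cells with 3 or more counts of Pf4 and Ppbp. Thinned, the latter set made up 2.17% and 2.03% of kept cells, against 2.58% and 1.17% of erythroid-gated cells. Whether its cells were alike in both sections was not tested. Away from the section edge by more than 200 µm, Col1a1 had a log2 fold of 2.58 and Tagln 2.84, so neither was limited to the rim.

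Endothelial genes were mostly within 2-fold. Lyve1, a hyaluronan receptor of lymphatic and some sinus endothelium, was the single one of 17 past the bound, against 38.8% of all genes higher, at 0.00501 and 0.0264 counts per kept cell, 6.57-fold higher in CPM (95% interval 5.73 to 7.56), and 42.6% of its counts after PHZ came from cells with 5 or more. Plvap, of fenestrated vessels, and Kdr, the VEGF receptor, were 1.76-fold and 1.66-fold lower, Vwf was at 1.78 times its untreated level, and Oit3 and Calcrl were 1.98-fold and 1.78-fold lower. The list median was a log2 fold of -0.0683. After division by the median fold of genes of other tissues 9 were 2-fold lower, against 123 of all 430 genes. Cells with endothelial markers made up 7.38% and 7.24% when thinned, against 10.1% and 5.04% in erythroid-gated cells. The untreated share was below that of erythroid-gated cells and the PHZ share above it.

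Of 4 platelet or megakaryocyte genes, Cavin2, a caveola protein, was 3.34-fold lower in CPM (95% interval 3.12 to 3.57), whereas the platelet chemokines Pf4 and Ppbp were at 0.951 and 1.00 times the untreated level in CPM and Gng11 1.36-fold lower. More than 20 µm from removed cells the log2 fold of Cavin2 was 1.07. Among 5 fat-linked genes, Car3 was 6.38-fold lower in CPM (95% interval 5.50 to 7.44) and Pck1 3.55-fold lower, Retn 1.93-fold lower (log2 fold 1.25 more than 20 µm from removed cells, on 3 PHZ counts) and Timp4 2.75-fold higher. In the untreated section 83.5% of Car3 counts came from cells with 5 or more, although only 1.23% of kept cells had any. More than 200 µm from the section edge the log2 fold was 0.0224 for Car3 and 0.12 for Pck1. Over the nucleus they were -0.64 and -0.21, and more than 20 µm from removed cells Car3 was at -0.11, on 2 PHZ counts.

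The 4 proliferation genes were each within 2-fold, Ube2c and Stmn1 at 1.66 and 1.66 times and Cenpf and Diaph3 at 1.29 and 1.26 times the untreated level, with a list median of 0.55 (log2) that became -0.12 after division by the median of all genes. In C1q-gated cells the median was 2.20 and in erythroid-gated cells 1.82. Of the 17 erythroid genes outside the gate, 9 were 2-fold higher in kept cells, against 38.8% of all genes, with a median of 1.14. Among them were Plek2 at 8.04-fold, Gata1 at 4.46-fold and Car2, a carbonic anhydrase, at 4.38-fold. After the second division 4 of the 17 were higher and 5 lower, against 37 and 123 of all 430 genes, with a median of 0.16. In cells without a gate count the erythroid median was 0.62. Of the 8 gate genes, 4 were 2-fold higher below the gate (Slc4a1, Klf1, Hemgn and Rhd, 5.20 to 7.72-fold), and C1qa, C1qb, C1qc and Fech were at 1.02, 1.88, 1.30 and 1.25 times, which describes the choice of cells.

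**Figure D5:**
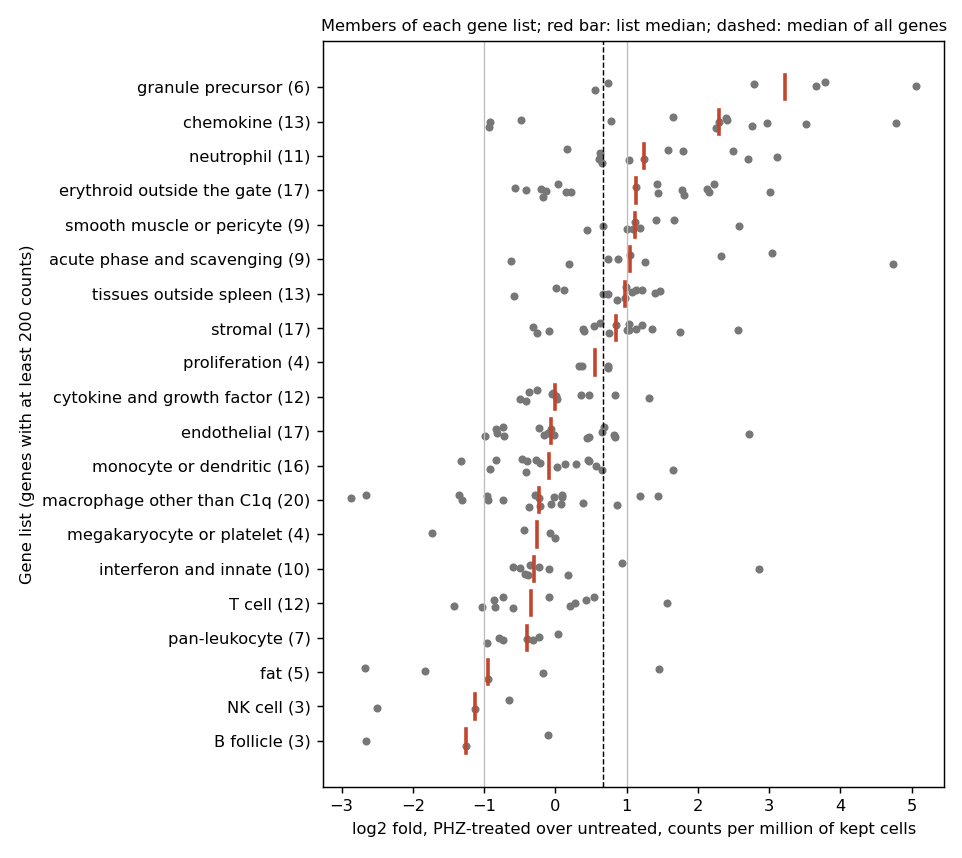
Log2 fold in CPM (x) of every gene with at least 200 counts in 20 gene lists (y, number of genes in brackets; the list of gate genes is left out), with the list median in red, the median of all genes dashed and 2-fold in gray. Of these lists, granule precursor, chemokine and neutrophil lay highest by their medians. The B follicle list includes Coch, which differed from the other two in where it was found.

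The removed cells of the same sections were read beside the kept ones, although the values are not independent. The neutrophil and stromal list medians, above 0 in kept cells, were -0.45 and -0.74 (log2) in C1q-gated cells. The median of all genes also differed in sign, at 0.67 in kept and -0.28 in C1q-gated cells. Of 163 genes 2-fold higher in kept cells, gate genes left out, 54 had the opposite sign in C1q-gated cells. With the median below 0, most of all genes tested were lower in C1q-gated cells. Of the 25 genes 2-fold lower in kept cells, 0 had the opposite sign in C1q-gated cells. Of these 25, 23 were also 2-fold lower in C1q-gated cells and 25 in erythroid-gated cells. The share of all genes 2-fold lower in those cells was not formed. The chemokine list median was 1.89 in C1q-gated and 1.90 in erythroid-gated cells, against 2.30 in kept cells. The T cell, NK cell and B follicle medians were -1.30, -2.99 and -2.53 in C1q-gated cells, against -0.35, -1.13 and -1.26 in kept cells. Cxcl2 and Saa3 had log2 folds of 4.79 and 4.74 in kept cells and 4.04 and 5.11 in C1q-gated cells. Elane and Mpo, at 3.78 and 3.66 in kept cells, were at 0.92 and 0.96 in C1q-gated cells.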

How the data were processed

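Deposited counts of decoded transcripts per gene and cell were used, as the authors exported them from the imaging instrument (Xenium Onboard Analysis 1.7.1.0; genome build not given in the sources used here). Per the file headers a quality score accompanies each transcript, and the authors' matrix was rebuilt exactly in both sections from transcripts with a score of at least 20. Cells were those of the deposited segmentation, with no doublet removal. The cells, genes, gene lists and marker sets were chosen with earlier results of these data known.

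Counts were summed over kept cells and expressed per cell and as CPM (scaled to the same total in both sections). A gene was named when among the 10 largest rises or falls with 1000 or more counts, when among the 4 members of a list with the largest change, or as a gate gene. Other list members and genes in the marker comparisons, and Ctsg, Foxp3, Hpx and C3, were chosen after their values were seen. Values of a few single genes are not reported here. Intervals are exact Poisson, binomial or conditional binomial ones at 95% (scipy 1.17.1) and cover counting error only. Ratios were checked on simulated data. Both spleens shared 1 cell barcode, and depth was 5216277 and 1283749 counts in kept cells.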

Additional observations from a re-analysis of the deposited data

Results flagged for a closer look

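In 2 genes the kept cells and the C1q-gated cells of the same sections moved at least 2-fold in opposite directions in CPM. Ly6g, a neutrophil surface protein, had a log2 fold of 1.04 in kept cells and -1.13 in C1q-gated cells. Vsnl1 had 1.08 and -1.46, on 184 and 96 counts in kept cells. The median of all genes was itself 0.67 in kept and -0.28 in C1q-gated cells. The difference between the cell groups was not tested, and with 1 section per condition it could not be.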

How the results depend on the processing

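No paired analysis was possible because each condition was 1 section and the labels carry no replicate numbers. The number of genes at least 2-fold higher, 167, moved by more than 1.5 times to 100 per kept cell, 51 after division by the median fold, 106 in cells without a gate count, 61 without a gate, 43 more than 20 µm from removed cells, 69 among genes with 1000 counts or more, 57 at 3-fold and 37 after division by the median fold of genes of other tissues. The number at least 2-fold lower, 25, moved to 51 per kept cell, 84 and 123 after the same divisions, 128 without a gate and 11 at 3-fold. Both counts stayed within 1.5 times with Hbb-bt left out of the total, with at least 20 counts per cell, thinned to 50 counts, over the nucleus, at 50 counts per gene and more than 200 µm from the section edge. A larger gene minimum, a higher fold and fewer cells lower a count by construction, and the cause of the other shifts was not tested. The setting at more than 200 µm from the section edge and the division by genes of other tissues were added after seeing the data.

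The share kept was 27.7% untreated and 7.32% after PHZ without any gate count and 60.7% and 20.6% with at least 20 counts per cell. Mean counts per kept cell were then 70.6 and 52.0, and 79.1 and 65.2. Among the named genes past 2-fold, log2 folds changed sign more than 20 µm from removed cells for Elane (-0.10, on 1 PHZ count), Cavin2 (1.07), Cd8a (0.0434) and Cd3d (0.44). Among named genes within 2-fold, Klra8 (1.19), Retn (1.25) and Diaph3 (-0.43) were among those that did, and the NK cell list median became 0.28. Away from the section edge they did for Car3 (0.0224) and Pck1 (0.12). Without a gate they did for Ctla4 (-0.0697), Clec4f (-0.15), Serpinf1 (-0.0633), Mfap4 (-0.66), Rgs5 (-0.12), Cnn1 (-0.46), Hc (-0.39), Timp4 (-0.0555), Scgb3a2 (-0.00798), Krt16 (-0.0105) and Neurod1 (-0.38).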
